A study of Mus musculus with 8 samples.

Results

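The genes described here form an interferon-γ response and antigen presentation set of 36 listed mouse genes, of which 33 were measured among the 19938 genes of the arrays. A gene was measured if at least 1 array probeset carried its symbol alone, and where several did, the one with the highest 8-array mean was taken. Irgm2, Igtp and Gbp2 had no such probeset and were left out. Gene expression was measured in cultured CD4 T cells of C57BL/6 mice, on 1 Affymetrix array per culture, in 4 groups of 2 arrays: wild-type Th1, Tet2-/- Th1, wild-type Th17 and Tet2-/- Th17. In all groups the starting cells were naive CD25-CD62LhighCD44low T cells from spleen and lymph node, stimulated through CD3 and CD28. The Th1 medium held IL-12 at 10 ng/ml, IL-2 at 30 U/ml and anti-IL-4, with no antibody to interferon-γ listed. The Th17 medium held TGF-β1 at 0.5 ng/ml, IL-6 at 10 ng/ml, anti-IL-4 and also anti-IFN-γ, which blocks the cytokine this gene set responds to. No source used here says how the Tet2 allele was made or whether animals were pooled, and p-values below measure the spread between arrays only. The Tet2 protein oxidises 5-methylcytosine, a step toward DNA demethylation, and the study concerns its part in the cytokine expression of T cells.

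Interferon-γ, the cytokine that defines Th1 cells, binds a receptor that signals through the JAK1 and JAK2 kinases. Many promoters of its target genes hold short DNA elements called GAS, and others hold ISRE elements, which induced factors such as IRF1 bind. The targets include GTPases that attack intracellular microbes, the immunoproteasome that cuts proteins into peptides, the TAP transporter that carries peptides into the endoplasmic reticulum, and the class I molecules that present them. In cells that can present to CD4 T cells, interferon-γ also induces CIITA and through it the class II genes.

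The promoters of the set were searched for both elements, because its members are known interferon-γ targets and moved together in the comparison of Th1 with Th17 cells below. RefSeq windows of 300 bases on GRCm38.p6, 250 before and 50 after a gene start, were given for 24 of the 33 measured members. The letters searched on both strands were TTCNNNGAA for GAS, which reads the same on either strand, and GAAA, any 2 bases and GAAA again for ISRE. The 6 stretches below belong to the members that were higher in wild-type Th1 cells, held a match and had the smallest p in that comparison. They read 5′ to 3′ on the gene's strand, with the matched letters in capitals, where a run of capitals longer than 1 match holds 2 overlapping ISRE matches and TTTC, 2 bases and TTTC is the ISRE read from the other strand.
Irf8, chr8:120736172-120736228, plus strand: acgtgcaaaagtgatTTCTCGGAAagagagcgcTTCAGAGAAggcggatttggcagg
Irgm1, chr11:48871421-48871465, minus strand: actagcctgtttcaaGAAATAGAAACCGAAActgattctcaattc
Gbp7, chr3:142530215-142530307, plus strand: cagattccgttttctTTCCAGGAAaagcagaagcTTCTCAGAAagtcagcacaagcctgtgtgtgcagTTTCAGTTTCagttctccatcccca
Icam1, chr9:21015883-21015921, plus strand: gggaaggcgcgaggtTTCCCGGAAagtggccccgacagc
Irf1, chr11:53769909-53769947, plus strand: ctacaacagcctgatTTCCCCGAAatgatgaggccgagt
Gbp3, chr3:142559984-142560029, plus strand: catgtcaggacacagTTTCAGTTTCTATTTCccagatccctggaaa

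Irf8 held 2 GAS matches, Irf1 and Icam1 held 1 each, and Gbp7 held 2 GAS matches and 1 ISRE match. Irgm1 and Gbp3 held only ISRE matches, 2 overlapping ones each, and those of Irgm1 lay within 45 bases of the start. Over the set, 12 of 24 members (50.0%) held a GAS or an ISRE match, beside 12.9% of all 27025 genes with windows. GAS letters were in 6 members (25.0%, against 9.55% of all genes) and ISRE letters in 8 (33.3%, against 3.99%). Of the 17 members with a window that were higher in wild-type Th1 cells 9 held a match, and of the other 7 members 3 did. The standard proteasome subunits, which are not interferon targets, held a match in 1 of 11 genes. A match describes these letters and does not show that a factor binds there, and a window without one says only that the letters are not in it.

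Array medians lay between 6.47 and 6.53 log2 units, and the number of arrays limits the precision. A background level of 6.72 was set at the 95th percentile of 1190 olfactory and vomeronasal receptor genes. CD4 T cell markers lay above it in 6 of 6 measured genes in every group, and the array means of this list ran from 10.7 to 11.0. Of the 6 measured Th1 markers 5 were higher in Th1 cells, and of the 5 measured Th17 markers all were lower, in both genotypes. Of 5 CD8 T and natural killer cell markers, 4 lay under the background level in every group, and the other, Klrd1, had a group mean above it only in Tet2-/- Th17 cells (7.29 and 8.10). The single Tet2 probeset read 7.97 to 8.14 in the 4 Th1 arrays and 8.37 to 8.53 in the 4 Th17 arrays, and whether it lies in the deleted part is not given, so these values say nothing on genotype. The Th17 arrays differed among themselves in sex-linked transcripts: the mean of 3 Y-linked genes was 8.80 in the first and 7.82 in the second wild-type culture, 8.71 in Tet2-/- replicate 1 and 4.85 in Tet2-/- replicate 2, against 7.95 to 8.24 in the Th1 arrays. Xist, which is transcribed from the inactive X chromosome, read 4.83 to 5.12 in the 4 Th1 arrays and 5.20 in wild-type Th17 replicate 1, but 10.1 in wild-type Th17 replicate 2 and 8.62 and 11.3 in Tet2-/- Th17 replicates 1 and 2. High Xist was thus found in 3 of the 4 Th17 arrays and in no Th1 array, and counts with either level as a covariate are given beside the main ones. In bulk RNA of this kind, fewer cells of a type and less RNA per cell cannot be told apart.

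The comparison of Th1 with Th17 cells asks how the set stood in the 2 culture conditions. In wild-type cells 20 of the 33 members were higher in Th1 cells and 0 were lower, by limma at an adjusted p under 0.05 (Benjamini-Hochberg over all genes). Among all 19938 genes 3.17% were higher and 5.3% lower. In Tet2-/- cells 23 members were higher and 0 lower, against 3.29% and 7.14% of all genes. The same 20 members were called in both genotypes, the other 3 (Nlrc5, Gbp5 and Wars) in Tet2-/- cells only, and 10 members in neither. Of the 20, 18 lay above the background level in all groups, and their fold ran from 1.38 (Psme1) to 3.98 (Irf8) with a median of 1.75 in wild-type cells, and from 1.45 (B2m) to 3.93 (Irf8) with a median of 1.88 in Tet2-/- cells. The other 2, Iigp1 and Casp1, lay under it in Th17 cells or in every group and are given below with a bound or with no size. The median log2 difference over the 33 members was 0.64 in wild-type and 0.70 in Tet2-/- cells, beside 0.01 over all genes in each, and 30 and 31 members lay above 0, beside 52.8% and 51.2% of all genes. Over the 25 members above the background level in all groups, the medians were 0.71 and 0.75. A run limited to genes with a mean over all arrays above that level held 27 members. Of these, 21 were called in wild-type and 22 in Tet2-/- cells, all higher in Th1 cells. Among all 9383 genes of that run, 1602 and 2013 were called, higher or lower. For 26 members, all 4 Th1 arrays lay above all 4 Th17 arrays, which held for 10.2% of all genes, and for 0 members did they all lie below, which held for 14% of all genes.

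These counts depended on single arrays, on the variance estimate and, in Tet2-/- cells, on an Xist covariate. Without 1 array of the groups compared, fewer members were called, and so were fewer of all genes. Such a fit leaves 1 array in a group, so its counts are not given. With ordinary variances in place of limma's moderated ones the counts were 1 in wild-type and 4 in Tet2-/- cells. With the mean of the Y-linked genes as a covariate they were 18 and 21. With Xist as the covariate, an alternative chosen after seeing the data, they were 18 and 11, and no Tet2-/- Th17 array had an Xist level as low as the Th1 arrays. Calls over all genes fell too, from 1689 in wild-type and 2078 in Tet2-/- cells in the main fit. They were 87 and 166 with ordinary variances, 1299 and 1447 with the Y-linked covariate, and 727 and 317 with the Xist covariate. The Tet2-/- member calls lost with the Xist covariate were those of Gbp3, Gbp5, Psmb8, Psmb10, Psme1, Psme2, Tapbp, B2m, Nlrc5, Icam1, Casp1 and Wars. With wild-type Th17 replicate 1, the Th17 array with low Xist, alone for its group, the median wild-type member difference was 0.74. Quantile normalization gave 23 and 25 member calls, beside 1309 and 1649 over all genes. It moved the share of higher genes among all calls from 37.5% to 48.4% in wild-type and from 31.5% to 44.3% in Tet2-/- cells.

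**Figure D1:**
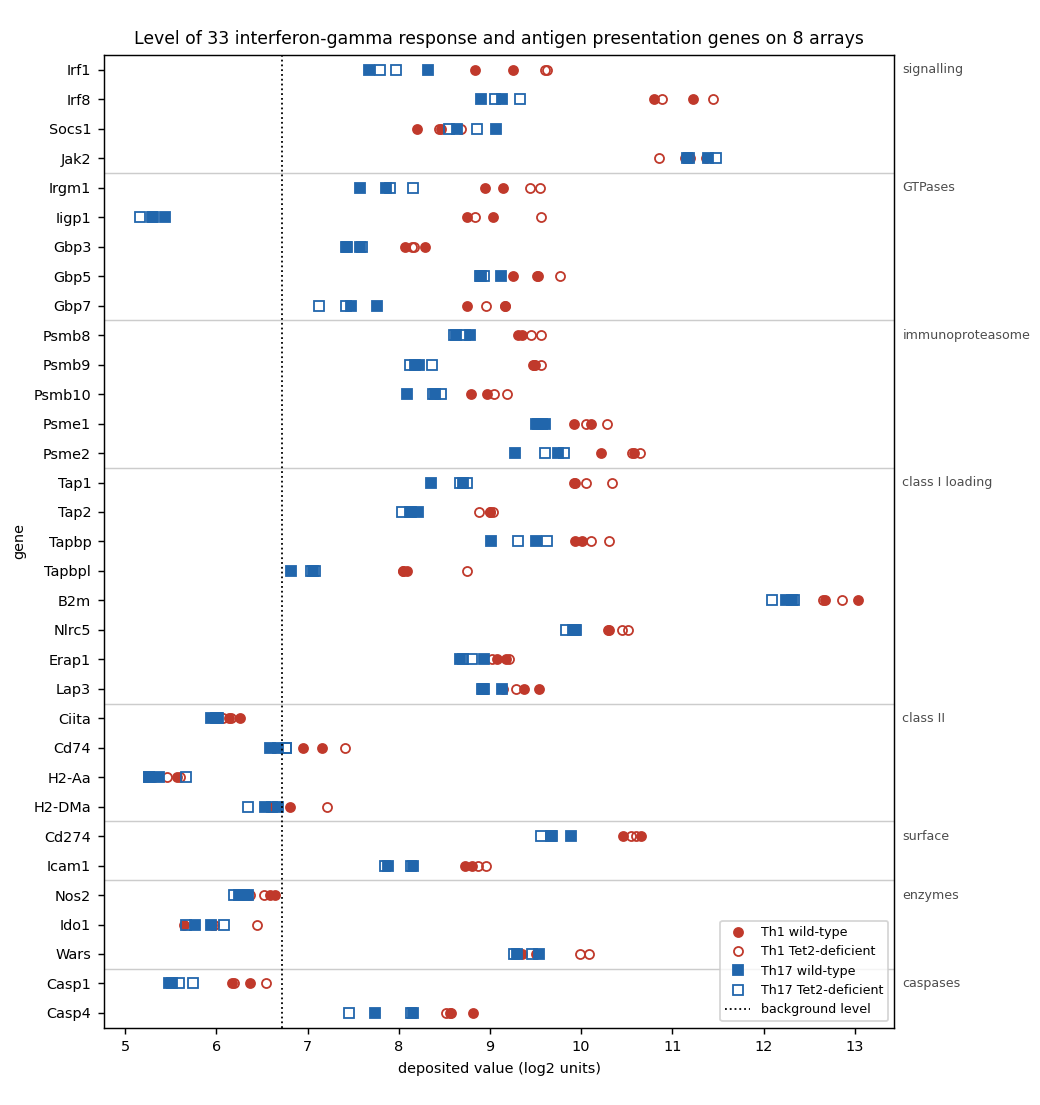
Deposited value (log2 units) of the 33 measured members on each of the 8 arrays, with the background level of 6.72 as a dotted line. Circles are Th1 and squares Th17 arrays, filled for wild-type and open for Tet2-/-; the circles of Iigp1, Irf8 and Tap1 stand clear of the squares, and Ciita and H2-Aa lie under the background level on every array.

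**Figure D2:**
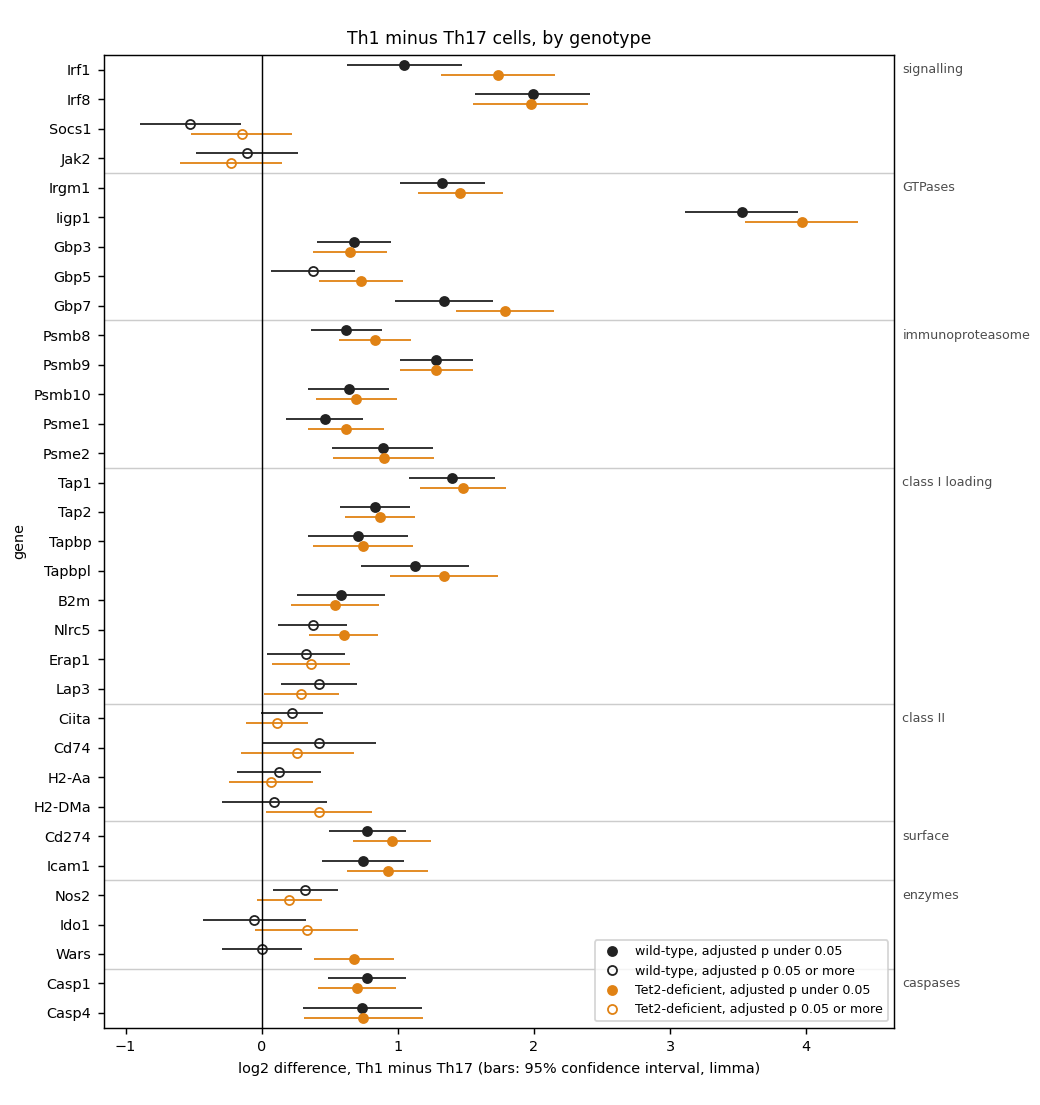
Log2 difference between Th1 and Th17 cells for each member in wild-type and in Tet2-/- cells, with 95% confidence intervals from the fit. Iigp1 has the largest difference plotted in both genotypes (3.53 and 3.97), but its Th17 values lie under the background level, so only differences of at least 2.17 and 2.47 are supported; values of Casp1, Ciita, H2-Aa, Nos2 and Ido1 lie under it in every group. In all, 30 and 31 of the 33 members lie above 0.

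Of the 4 members that transmit or limit the signal, the transcription factors Irf1 and Irf8 were higher in Th1 cells of both genotypes and the kinase gene Jak2 and the feedback inhibitor Socs1 were not called. Irf8 read 10.80 and 11.22 in wild-type Th1 cells (replicates 1 and 2, the order used throughout), 11.44 and 10.89 in Tet2-/- Th1 cells, 8.91 and 9.14 in wild-type Th17 cells, and 9.33 and 9.06 in Tet2-/- Th17 cells. All Th1 arrays lay above all Th17 arrays, and the differences were 1.99 (SE 0.194, adjusted p = 4.8e-05) in wild-type and 1.97 (adjusted p = 4.51e-05) in Tet2-/- cells, a fold of 3.98 and 3.93. Irf1 read 9.25 and 8.84 in wild-type Th1, 9.61 and 9.62 in Tet2-/- Th1, 7.67 and 8.32 in wild-type Th17, and 7.97 and 7.79 in Tet2-/- Th17 cells. Its arrays did not overlap between conditions, the fold was 2.07 in wild-type (adjusted p = 0.00557) and 3.33 in Tet2-/- cells (adjusted p = 0.000126), and the wild-type Th17 pair was the widest of the 4. A second Irf1 probeset read 6.34 to 6.57 on all arrays, under the background level, and with the mean of both the wild-type difference was 0.48 (adjusted p = 0.0534). Socs1, which binds and inhibits JAK kinases, read 8.46 and 8.20 in wild-type Th1 against 8.64 and 9.07 in wild-type Th17 cells, a difference of -0.53 (adjusted p = 0.0778), and 8.68 and 8.44 against 8.86 and 8.55 in Tet2-/- cells, where the arrays overlapped. Jak2 differed by -0.11 in wild-type and -0.23 in Tet2-/- cells, with overlapping arrays in both. Without wild-type Th1 replicate 1 the wild-type difference of Irf1 was 0.84 (adjusted p = 0.0545), and without wild-type Th17 replicate 1 that of Socs1 was -0.74 (adjusted p = 0.0435).

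The GTPases held the largest difference of the set, that of Iigp1, with 4 of 5 measured members higher in wild-type Th1 cells and 5 of 5 in Tet2-/- Th1 cells. Iigp1, an immunity-related GTPase that acts on the vacuoles of intracellular parasites, read 9.04 and 8.75 in wild-type Th1 cells and 8.83 and 9.56 in Tet2-/- Th1 cells. In Th17 cells it read 5.43, 5.30, 5.16 and 5.30 (wild-type, then Tet2-/-), all under the background level. With that level in place of the Th17 mean, Iigp1 was at least 4.49-fold higher in wild-type and 5.55-fold in Tet2-/- Th1 cells. These bounds were not tested. The limma test was of the measured differences, 3.53 (adjusted p = 3.16e-07) and 3.97 (adjusted p = 1.06e-07). Irgm1, which regulates the other immunity-related GTPases, read 9.14, 8.95, 9.54 and 9.43 in the Th1 arrays and 7.57, 7.87, 8.16 and 7.90 in the Th17 arrays. The wild-type fold of Irgm1 was 2.51 (SE 0.143 on the log2 scale, adjusted p = 0.000105) and the Tet2-/- fold 2.75 (adjusted p = 4.51e-05).

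The 3 measured guanylate-binding proteins, large GTPases that coat and break open microbial compartments, lie next to each other on chromosome 3 and differed by unequal amounts. Gbp7 read 9.16, 8.75, 9.17 and 8.96 in the Th1 arrays and 7.48, 7.76, 7.12 and 7.42 in the Th17 arrays, a fold of 2.53 in wild-type (adjusted p = 0.000324) and 3.46 in Tet2-/- cells (adjusted p = 3.17e-05). Gbp3 read 8.07 to 8.29 in the Th1 and 7.42 to 7.60 in the Th17 arrays, a fold of 1.60 in wild-type (adjusted p = 0.00565) and 1.57 in Tet2-/- cells (adjusted p = 0.00596). Gbp5 was higher in Tet2-/- cells only, by 0.73 log2 units (adjusted p = 0.00636). In wild-type cells it read 9.53 and 9.25 in Th1 against 8.90 and 9.13 in Th17 cells, a difference of 0.38 (adjusted p = 0.128), and the test of the difference between genotypes was not passed (0.35, adjusted p = 0.999). Without Tet2-/- Th17 replicate 1 the Tet2-/- calls of Gbp3 (0.56, adjusted p = 0.0862) and Gbp5 (0.70, adjusted p = 0.0659) were lost, as was that of Gbp5 without Tet2-/- Th1 replicate 2 (0.60, adjusted p = 0.0624).

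All 5 members of the immunoproteasome and its activator were higher in Th1 cells of both genotypes. Psmb8, Psmb9 and Psmb10 encode the catalytic subunits that replace the standard ones, and Psme1 and Psme2 encode the PA28 cap that opens the core. Psmb9 read 9.48, 9.48, 9.56 and 9.49 in the Th1 arrays and 8.18, 8.22, 8.12 and 8.37 in the Th17 arrays, and the Tet2-/- Th17 pair was the widest. Its log2 difference was 1.28 in wild-type (SE 0.123, adjusted p = 4.49e-05) and 1.28 in Tet2-/- cells (adjusted p = 3.95e-05), a fold of 2.43 in each. Psmb8 read 9.31 to 9.56 in the Th1 and 8.61 to 8.78 in the Th17 arrays, with differences of 0.62 (adjusted p = 0.00763) and 0.83 (adjusted p = 0.000866). Psmb10 differed by 0.64 and 0.70 (adjusted p = 0.0124 and 0.00624). Psme2 read 10.58 and 10.22 in wild-type Th1 against 9.27 and 9.75 in wild-type Th17 cells, and differed by 0.89 (adjusted p = 0.00733) and, in Tet2-/- cells, by 0.89 (adjusted p = 0.00557). Psme1 had the smallest difference of the group in wild-type cells, 0.46 (adjusted p = 0.0463), and 0.62 in Tet2-/- cells (adjusted p = 0.00927), and its wild-type call was lost in 12 of 20 alternative settings. The call of Psmb9 was kept in 20 of 20 in both genotypes. With the Xist covariate, Psmb8, Psmb10, Psme1 and Psme2 lost their Tet2-/- calls, with larger fitted differences (0.67 to 1.17) and adjusted p of 0.0604 to 0.230. Other wild-type calls were lost without single arrays: without wild-type Th1 replicate 1 the adjusted p was 0.0605 for Psme2, 0.0769 for Psmb10 and 0.184 for Psme1, and without wild-type Th17 replicate 1 it was 0.0606 for Psmb8, 0.0666 for Psme2, 0.0964 for Psmb10 and 0.179 for Psme1. Psme1 also lost its wild-type call without wild-type Th17 replicate 2 (0.138) or either Tet2-/- Th17 array (0.0776 each). In Tet2-/- cells, calls were lost without Tet2-/- Th17 replicate 2 for Psme2 (adjusted p = 0.0608), Psmb10 (0.0575) and Psme1 (0.0751), without Tet2-/- Th17 replicate 1 for Psme1 (0.0708), and without a Tet2-/- Th1 array for Psmb10 (replicate 1, 0.0622) and Psme1 (replicate 2, 0.0806).

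The standard proteasome served as a comparison within the same machine. All 14 listed genes of the standard core were measured and 0 were called in either genotype, with median differences of 0.04 and -0.02 and single differences from -0.28 to 0.18 in wild-type and -0.30 to 0.27 in Tet2-/- cells. Psmb5, Psmb6 and Psmb7, the catalytic subunits that the interferon-induced ones replace, were among them. At an unadjusted p under 0.05 the count was also 0 in both genotypes.

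**Figure D3:**
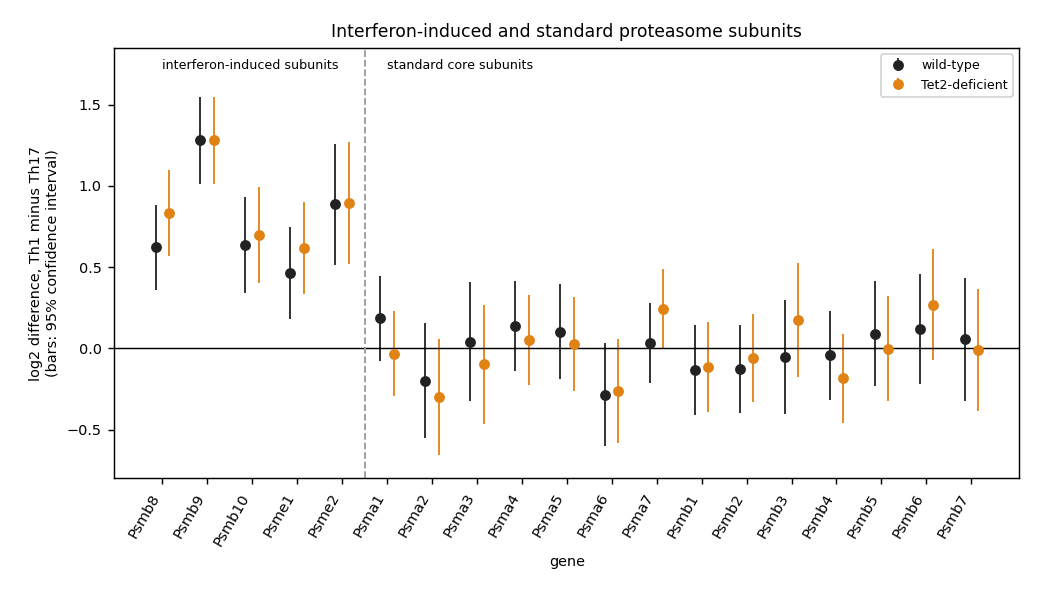
Log2 difference between Th1 and Th17 cells, with 95% confidence intervals, for the 5 interferon-induced subunits (left of the dashed line) and 14 standard subunits, in wild-type and Tet2-/- cells. The interferon-induced subunits lie between 0.46 and 1.28 with intervals above 0, and the standard ones between -0.30 and 0.27.

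The class I group of 8 members holds genes for peptide trimming, transport and loading, the light chain and the transactivator Nlrc5. Of these, 5 were higher in wild-type and 6 in Tet2-/- Th1 cells, where Nlrc5, described below, was the added call. Tap1 and Tap2 encode the chains of the peptide transporter, Tapbp encodes tapasin, which bridges it to class I, and Tapbpl is related to tapasin. Tap1 read 9.92, 9.93, 10.34 and 10.05 in the Th1 arrays and 8.35, 8.70, 8.74 and 8.68 in the Th17 arrays, a fold of 2.64 in wild-type (adjusted p = 8.19e-05) and 2.79 in Tet2-/- cells (adjusted p = 4.51e-05). Tap2 read 8.88 to 9.04 in the Th1 and 8.04 to 8.21 in the Th17 arrays, with differences of 0.83 (adjusted p = 0.000899) and 0.87 (adjusted p = 0.00053). Both transporter genes therefore had Th1 arrays that lay clear of all Th17 arrays. Tapbp read 9.93 to 10.31 against 9.01 to 9.63, with differences of 0.71 (adjusted p = 0.0228) and 0.74 (adjusted p = 0.0149). Tapbpl read 8.04, 8.09, 8.05 and 8.74 against 6.82, 7.06, 7.08 and 7.03, with differences of 1.13 (adjusted p = 0.00232) and 1.34 (adjusted p = 0.000545). B2m, the light chain of class I molecules, read 12.68, 13.04, 12.86 and 12.65 against 12.31, 12.24, 12.10 and 12.33. Its differences of 0.58 (adjusted p = 0.0311) and 0.54 (adjusted p = 0.0385) lost the call in 11 of 20 alternatives in each genotype. Among these, it was lost without wild-type Th1 replicate 2 or any 1 of the 4 Th17 arrays in wild-type cells (highest adjusted p 0.191, without wild-type Th17 replicate 2). In Tet2-/- cells it was lost without either Tet2-/- Th1 array or any 1 of the 4 Th17 arrays (highest 0.318, without Tet2-/- Th17 replicate 1). Tapbp lost its wild-type call without wild-type Th1 replicate 1 (adjusted p = 0.0998) or 2 (0.0556) or wild-type Th17 replicate 1 (0.163), and its Tet2-/- call without Tet2-/- Th1 replicate 1 (0.124) or Tet2-/- Th17 replicate 2 (0.140). The peptide-trimming enzymes Erap1 (0.33 and 0.36, adjusted p = 0.151 and 0.110) and Lap3 (0.42 and 0.29, adjusted p = 0.0612 and 0.185) were not called.

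Nlrc5, the transactivator of class I genes, was called only in Tet2-/- cells by the probeset the rule chose, which read 10.30, 10.30, 10.52 and 10.45 in the Th1 arrays and 9.91, 9.94, 9.93 and 9.83 in the Th17 arrays. Its differences were 0.37 (adjusted p = 0.0691) and 0.60 (adjusted p = 0.00582). Without Tet2-/- Th17 replicate 2 the latter was 0.56 (adjusted p = 0.0690). The gene had 19 single-symbol probesets, and all 19 had a higher mean in Th1 cells of both genotypes, by 0.24 to 1.21 (median 0.82) in wild-type and 0.51 to 1.55 (median 1.10) in Tet2-/- cells. For 17 of the 19, all Th1 arrays lay above all Th17 arrays. The probeset with the highest level, which the rule takes, thus had one of the smaller differences. With the mean of the 19, the wild-type difference was 0.76 (adjusted p = 0.0237). Probesets of 1 gene share the same RNA and are not replicates.

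**Figure D4:**
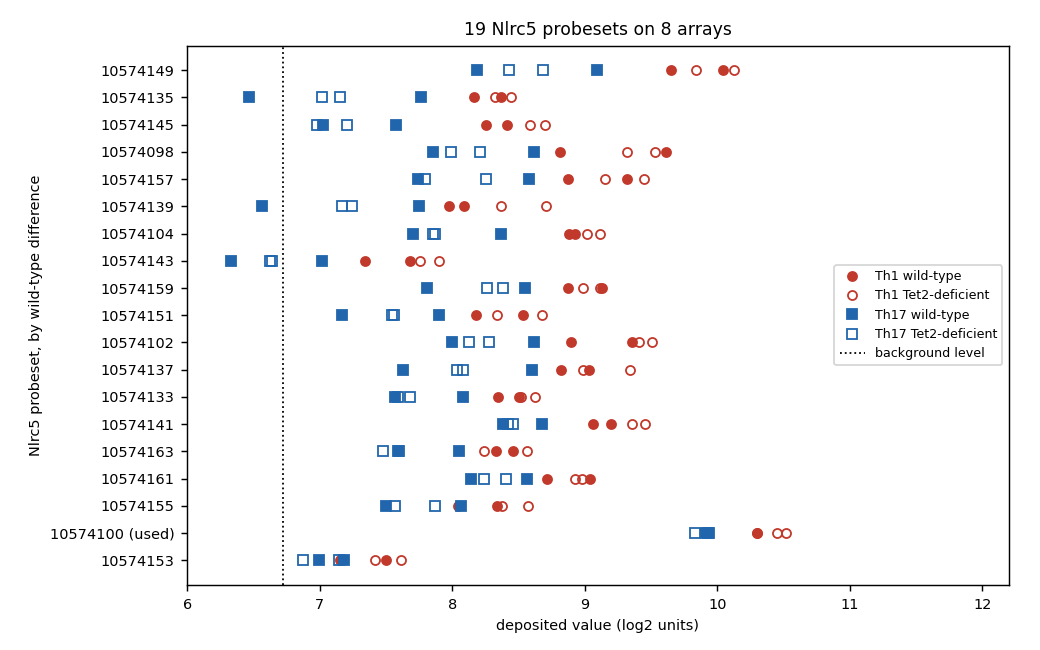
Deposited value (log2 units) of the 19 Nlrc5 probesets on the 8 arrays, ordered by the wild-type difference between Th1 (circles) and Th17 (squares) cells, with the background level of 6.72 as a dotted line. For 17 of the 19 probesets every circle lies to the right of every square, and the probeset used differed by 0.37 in wild-type cells.

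Of the class II members, 0 of 4 were called in either genotype. Ciita, the class II transactivator, read 6.07 to 6.26 in the Th1 and 5.94 to 6.02 in the Th17 arrays, and H2-Aa, a class II chain, read 5.31 to 5.60 and 5.26 to 5.66, all under the background level. Cd74, the invariant chain, read 7.15, 6.95, 7.41 and 6.64 in the Th1 and 6.58, 6.67, 6.76 and 6.77 in the Th17 arrays, around the background level (adjusted p = 0.199 and 0.456). H2-DMa, which helps exchange class II peptides, read 6.59 to 7.21 in the Th1 and 6.34 to 6.68 in the Th17 arrays, likewise around it (adjusted p = 0.167 in Tet2-/- cells). Of 6 other measured class II genes 0 were called in wild-type and 2 in Tet2-/- cells, H2-Ab1 by 1.18 (adjusted p = 0.00859) and H2-Eb1 by 0.45 (adjusted p = 0.0396). H2-Ab1 differed by 0.81 in wild-type cells (adjusted p = 0.0593). The Tet2-/- call of H2-Ab1 was lost without Tet2-/- Th1 replicate 1 (0.72, adjusted p = 0.0760) or Tet2-/- Th17 replicate 1 (1.18, adjusted p = 0.0607), while its wild-type difference was called without Tet2-/- Th1 replicate 1 (0.0147) or 2 (0.0148). H2-Eb1 lost its call without any 1 of the 4 Tet2-/- arrays (adjusted p 0.0717 to 0.242). Markers of the cells that carry much class II were low: of 7 measured B cell markers, 6 lay under the background level in every group, with array means of the list from 5.42 to 5.66, and all 10 myeloid and dendritic markers did, with means of 5.52 to 5.72. Of the B cell, myeloid and dendritic markers, 0 were called in any comparison.

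The remaining members are surface ligands, enzymes and caspases. Cd274, which encodes the inhibitory ligand PD-L1, read 10.46 to 10.66 in the Th1 and 9.56 to 9.89 in the Th17 arrays, with differences of 0.78 (adjusted p = 0.00303) and 0.96 (adjusted p = 0.000557). Icam1, an adhesion ligand, read 8.72 to 8.96 against 7.85 to 8.15, with differences of 0.75 (adjusted p = 0.00554) and 0.92 (adjusted p = 0.00105). Both ligands were thus higher in Th1 cells of both genotypes. Casp4, an inflammatory caspase that senses lipopolysaccharide, read 8.51 to 8.81 against 7.46 to 8.16 and differed by 0.74 (adjusted p = 0.041) and 0.75 (adjusted p = 0.0334), with the wild-type call lost in 9 of 20 alternatives. Casp1, which matures IL-1β, passed the threshold in both genotypes (adjusted p = 0.00324 and 0.00499), but it read 5.48 to 6.54 on all arrays, under the background level, so no size of difference is given. Nos2 and Ido1, which in macrophages make nitric oxide and break down tryptophan, lay under the background level in every group and were not called. Icam1 lost its wild-type call without wild-type Th17 replicate 1 (0.61, adjusted p = 0.0519), and Casp1 its Tet2-/- call without Tet2-/- Th1 replicate 2 (adjusted p = 0.0541) or Tet2-/- Th17 replicate 1 (adjusted p = 0.0623). Casp4 lost its wild-type call without any 1 of the 4 Th1 or the 2 wild-type Th17 arrays (highest adjusted p 0.222, without wild-type Th17 replicate 1). Its Tet2-/- call was lost without either Tet2-/- Th1 array or Tet2-/- Th17 replicate 1 (highest 0.332, without the latter).

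Wars, the tryptophanyl-tRNA synthetase gene, is induced by interferon-γ and was called in Tet2-/- cells only. It read 9.50 and 9.35 in wild-type Th1, 10.09 and 9.99 in Tet2-/- Th1, 9.30 and 9.54 in wild-type Th17, and 9.46 and 9.26 in Tet2-/- Th17 cells. Only the Tet2-/- Th1 pair lay above the other 6 arrays. Wars differed between Th1 and Th17 cells by 0.00 in wild-type cells, and it was higher in Tet2-/- Th1 than Tet2-/- Th17 cells by 0.68 (adjusted p = 0.007). Without Tet2-/- Th1 replicate 1 this was 0.63 (adjusted p = 0.0616), and without Tet2-/- Th17 replicate 2 it was 0.58 (adjusted p = 0.0824). The difference between these differences, 0.67 (95% confidence interval 0.26 to 1.09), was not called (unadjusted p = 0.00404, adjusted p = 0.999).

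The set can also be read along the chromosomes, in the gene order of GRCm38.p6. Psmb9, Tap1, Psmb8 and Tap2 follow one another on chromosome 17 with no other protein-coding gene between them, and all were higher in Th1 cells, while H2-Aa, with 2 genes between it and Tap2, and H2-DMa, with 2 genes between it and Psmb9, were not called. Psmb9 and Tap1 start back to back, and the 225 bases between their starts are shown because both genes were called in both genotypes and share this stretch. The stretch, on the plus strand, in which Tap1 is read, held neither motif searched.
Psmb9 to Tap1, chr17:34187331-34187555, plus strand: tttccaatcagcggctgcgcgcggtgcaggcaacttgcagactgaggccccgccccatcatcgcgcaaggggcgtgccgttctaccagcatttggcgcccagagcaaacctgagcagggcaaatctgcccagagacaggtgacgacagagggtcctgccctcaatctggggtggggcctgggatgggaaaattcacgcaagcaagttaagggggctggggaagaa

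Neighbours outside the class II region did not all move alike. Casp1 and Casp4 are adjacent on chromosome 9 and were both called. Casp1 lay under the background level in every group, however, and Casp4 lost its wild-type call in 9 of 20 alternatives. Cd274 and Jak2 have 3 genes between them on chromosome 19, and only Cd274 was called. Socs1 and Ciita have 2 between them on chromosome 16, and neither was called.

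Genes around the set, from lists of the same pathway, gave the ligand and receptor values. Ifng, the ligand, read 11.56 and 11.89 in wild-type Th1 cells, 10.43 and 10.18 in Tet2-/- Th1 cells, and 6.00 to 6.07 in the Th17 arrays. Of 11 measured ligand, receptor and signalling genes, 1 was higher (Ifng) and 2 lower in wild-type Th1 cells: Ifngr2, a receptor chain, by -1.29 (adjusted p = 9.49e-05) and the kinase gene Jak1 by -0.51 (adjusted p = 0.0276). In Tet2-/- cells 2 were higher and 4 lower, among them Ifngr2 by -1.37 (adjusted p = 4.96e-05), Jak1 by -0.77 (adjusted p = 0.00191) and Ifngr1, the other receptor chain, by -0.44 (adjusted p = 0.0489). The wild-type call of Jak1 was lost without either wild-type Th1 array, wild-type Th17 replicate 2 or either Tet2-/- Th17 array (adjusted p 0.0524 to 0.230). The Tet2-/- call of Ifngr1 was lost without Tet2-/- Th1 replicate 1 or any 1 of the 4 Th17 arrays (0.0653 to 0.310). Of 18 other measured interferon-γ targets, 7 were higher in wild-type and 8 in Tet2-/- Th1 cells and 0 were lower, among them the guanylate-binding genes Gbp4 (2.18 and 2.42), Gbp8 (1.78 and 1.95) and Gbp11 (1.20 and 1.28). Of 8 other measured genes listed for class I, 1 was higher in each genotype, H2-Q4, by 1.47 and 1.51. H2-M3 is also a class I chain, while Calr, Canx, Pdia3, Rfx5, Rfxap and Rfxank are helper or regulator genes. The class I chains H2-K1, H2-D1 and H2-T23 had only probesets shared with other symbols and were not tested. Those of H2-K1 and H2-D1 read 11.26 to 11.62 in the Th1 and 9.96 to 10.41 in the Th17 arrays. That of H2-T23 read 9.90 to 10.08 and 8.93 to 9.24.

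The second question was whether loss of Tet2 moved the set within a cell type. These comparisons use the same arrays as those of Th1 with Th17 cells. In Th1 cells 0 of 33 members were called by limma, where 1 of 19938 genes (0.00502%) was called: Ifng, which fell by 1.42 log2 units (SE 0.139, adjusted p = 0.00391). The Ifng call itself was lost in 5 of 20 alternatives. It was lost with ordinary variances, where 0 genes were called, and with only the Th1 arrays in the fit (adjusted p = 0.161). The others were without wild-type Th1 replicate 2 (-1.26), without Tet2-/- Th1 replicate 2 (-1.30), and without wild-type Th17 replicate 1 and Tet2-/- Th17 replicate 2 together. Of the members 23 lay above 0, beside 52.2% of all genes, with a median of 0.15 beside 0.01. At an unadjusted p under 0.05, 4 members were on the higher side (Wars, Irgm1, Irf1 and Ido1) and 0 on the lower, beside 2.77% and 2.97% of all genes. The arrays of the genotypes did not overlap for 11 members on the higher and 2 on the lower side, beside 18.3% and 14.4% of all genes. Over the 95% confidence intervals of the 33 members, the lowest bound was -0.58 (Casp4) and the highest 0.99 (Irf1).

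The members with the smallest p in Th1 cells all missed the adjusted threshold. The wild-type and Tet2-/- arrays of Wars, given above, differed by 0.61 (95% confidence interval 0.32 to 0.91, adjusted p = 0.737). Those of Irf1 differed by 0.57 (interval 0.15 to 0.99, adjusted p = 0.824) and those of Irgm1 by 0.44 (interval 0.13 to 0.75, adjusted p = 0.824). In each of these 3, both Tet2-/- arrays lay above both wild-type arrays. Ido1 read 5.95 and 5.65 against 5.97 and 6.45, under the background level (adjusted p = 0.841). Lap3 read 9.37 and 9.54 against 9.29 and 9.14 (-0.24, adjusted p = 0.853), and Tap1 differed by 0.27 (adjusted p = 0.855). The Th1 arrays of both genotypes lay above all Th17 arrays for Tap1, Psmb9 and Iigp1, which is no test of a Tet2 effect within Th1 cells.

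In Th17 cells, where Ifng lay under the background level, 0 members were called and 0% of all genes were. Of the members 15 lay above 0, beside 56.6% of all genes, with a median of -0.03 beside 0.02. At an unadjusted p under 0.05, 1 member was on the higher side and 0 on the lower, beside 2.81% and 1.44% of all genes, and arrays did not overlap for 3 and 2 members, beside 19.9% and 13.3%. The smallest p was that of Irgm1, with 7.57 and 7.87 in wild-type against 8.16 and 7.90 in Tet2-/- cells (0.31, unadjusted p = 0.0497, adjusted p = 0.999). Gbp7, at 7.48 and 7.76 against 7.12 and 7.42, differed by -0.35 (95% confidence interval -0.71 to 0.02). Psmb10 (0.17), Casp1 (under the background level), Tap1 (0.18) and Cd274 (-0.16) followed.

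The difference of the Tet2 effects between Th1 and Th17 cells was called for 0 members and 0% of all genes. At an unadjusted p under 0.05 there were 2 members on the higher side (Wars and Irf1) and 0 on the lower, beside 1.63% and 2.93% of all genes. Irf1 differed by 0.69 (95% confidence interval 0.09 to 1.28). Of the members 23 lay above 0, beside 47.3% of all genes. The median over the 33 members was 0.06, and it was 0.24 without wild-type Th17 replicate 1. Gbp7 (0.45), Gbp5 (0.35) and Socs1 (0.38) followed, with intervals that include 0.

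**Figure D5:**
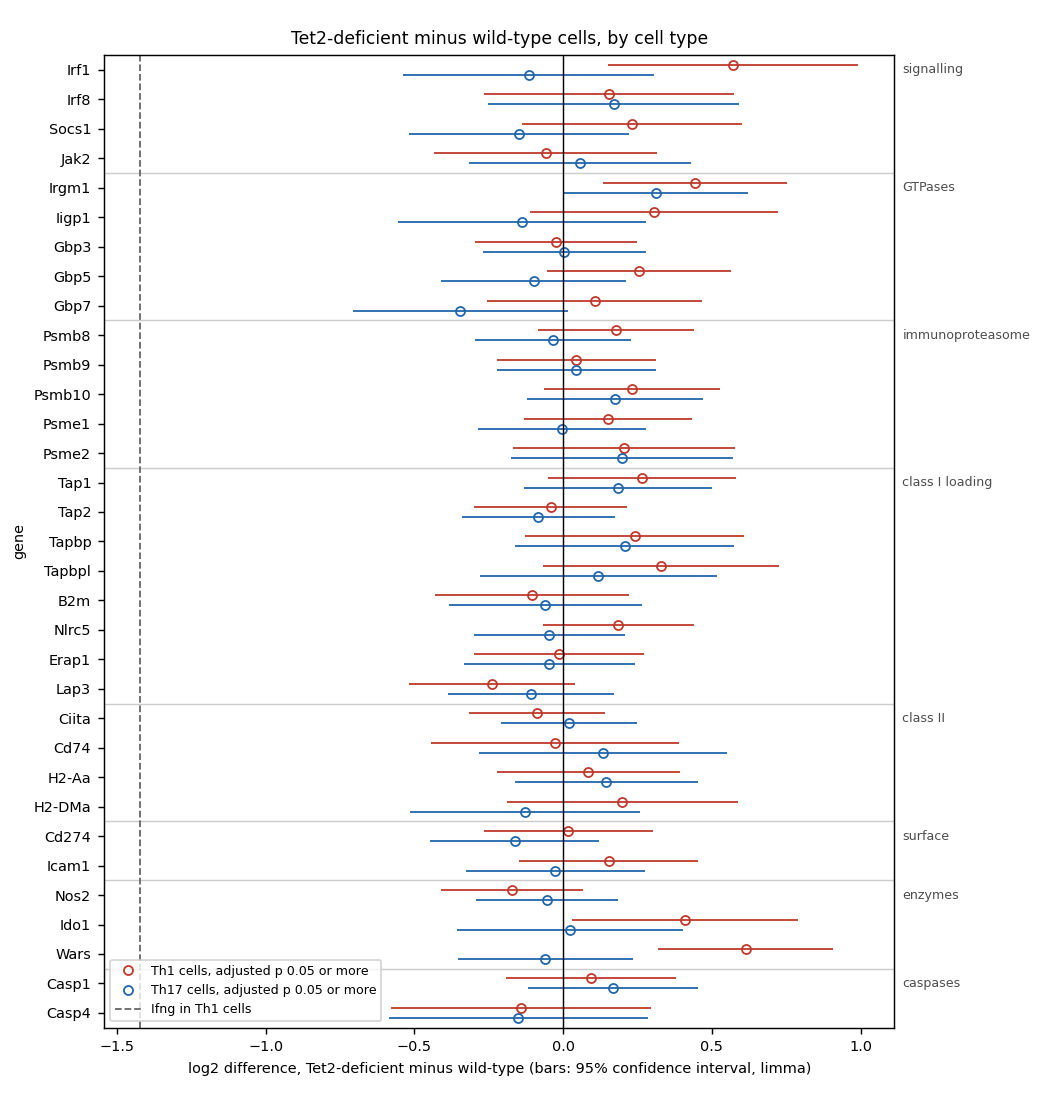
Log2 difference between Tet2-/- and wild-type cells for each member in Th1 and in Th17 cells, with 95% confidence intervals and the Th1 difference of Ifng (-1.42) as a dashed line. The line marks the gene with the largest fall of all genes in Th1 cells and is no test of the members. The lowest bound of a member is -0.58 in Th1 (Casp4) and -0.71 in Th17 cells (Gbp7). Wars (0.61) and Irf1 (0.57) have the largest differences in Th1 cells.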

How the data were processed

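Per the submitters' processing notes, the authors made the deposited log2 values with RMA and Partek, 1 per probeset and array. No source used here gives versions, filters or the probeset build. Base 2 itself is read from the spread of the table, 2.71 to 14.1.

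Among 35556 probesets, 21789 carried a single gene symbol, 1621 several and 12146 none listed. This left 19938 genes, and for 999 of them the probeset with the highest mean was taken from several. Of the single-symbol probesets, 21698 were found by Entrez ID in a GRCm38 gene table, which changed 0 symbols. No gene or array was left out.

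All 8 arrays entered 1 linear model of group means (limma 3.58.1, R 4.3.3; lmFit, eBayes with an intensity trend; 4 residual and 8.44 prior degrees of freedom). Tests were two-sided, Benjamini-Hochberg adjusted over all genes, and called at an adjusted p under 0.05. SE and 95% confidence intervals come from this fit, which was tested on simulated data with independent noise. Changes of 1 log2 unit were recovered in 100% of the changed genes. Changes of 0.5 were recovered in 60% for Tet2 loss in Th1 cells and 44% for wild-type Th1 against Th17 cells. Among the unchanged genes, 20 were called in each comparison (0.101%). Beside these, 50 of 50 changed genes were recovered at each of 1, 1.5 and 2 log2 units. In this simulation, false calls thus made up a larger share of the calls than the threshold names. Real arrays may differ from this simulation. A fold is 2 to the power of the log2 difference.

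The members and all gene lists were chosen with earlier results of these data known. Array values are given for up to 20 members called between Th1 and Th17 cells, by smallest p in wild-type cells, and for the 6 with the smallest p in each Tet2 comparison; other members are given by range. From the pathway and marker lists, up to 8 genes with the smallest p are named. Wars, Gbp5, Nlrc5, Socs1 and the class II genes were added after their values were seen. Alternatives were the mean of probesets, a background filter, no trend, a robust prior, no moderation, quantile normalization, array weights, the compared arrays only, a Y-linked covariate, a replicate block and leaving out each array; a crossed block, leaving out 2 Th17 arrays and an Xist covariate were added after seeing the data.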

Additional observations from a re-analysis of the deposited data

How the results depend on the processing

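Of 85 results for single genes, each under up to 20 alternatives, 1491 values kept their direction and side of the threshold, 185 kept the direction but lost the call, 13 gained it, and 0 reversed. Counts of members called by limma fell most with ordinary variances, to 1 in wild-type and 4 in Tet2-/- cells for Th1 against Th17, where few residual degrees of freedom remain. Calls over all genes fell with them, from 1689 to 87 in wild-type and from 2078 to 166 in Tet2-/- cells. Leaving out 1 array at a time gave 13 to 20 and 16 to 23 members; the lowest were without wild-type Th17 replicate 1 (13) and without Tet2-/- Th17 replicate 2 (16), and 14 were called in wild-type cells without wild-type Th1 replicate 1. An alternative chosen after seeing the data left out both of these Th17 arrays and gave 9 and 15, and another with the Xist level as a covariate gave 18 and 11. The cause of these losses beyond the smaller number of arrays was not tested. Member medians for Th1 against Th17 were 0.53 to 0.74 and 0.70 to 0.74 with 1 array left out, and in Tet2-/- cells 0.86 after quantile normalization and 0.89 with the Xist covariate. The median of the difference of the Tet2 effects ran from -0.012 (without wild-type Th17 replicate 2) to 0.24 (without wild-type Th17 replicate 1) with 1 array left out, and that of the Tet2 effect 0.09 to 0.19 in Th1 and -0.06 to 0.06 in Th17 cells. No member was called for a Tet2 effect, or for the difference of the effects, under any alternative run.

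Same-numbered replicates did not deviate together (correlations -0.19 to 0.05), and the labels name no shared batch. The lowest value was that of wild-type Th1 with wild-type Th17 cells. With 2 arrays per group, swapping the numbers of 1 group turns its sign. The check therefore cannot show whether arrays share a batch or an animal under another pairing. With the replicate number as a block, 18 members were called in wild-type and 22 in Tet2-/- cells, beside 1411 and 1810 of all genes, and 0 members for any Tet2 effect. A crossed pairing, which swaps the wild-type Th17 numbers, was added after seeing the data. It gave 21 (20 higher and 1 lower: Socs1, -0.53, adjusted p = 0.0159) and 23 members by limma, beside 1841 and 2282 of all genes.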

Other observations

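Within wild-type Th17 cells, replicate 2 read above replicate 1 for 28 of the 33 members, with a median difference of 0.21 log2 units, while 49.7% of all genes lay above and their median difference was 0.00. In wild-type Th1 cells replicate 2 lay above for 11 members (median -0.15) and 54.6% of all genes, in Tet2-/- Th1 cells for 11 members (-0.08) and 43.1%, and in Tet2-/- Th17 cells for 14 members (-0.05) and 46.6%. Members of 1 pathway are not independent of each other.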
